A study of Mus musculus with 57 samples.

Results

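Glutathione and antioxidant defence was followed in ribosome-bound RNA of mouse cortical astroglia through 10 genes: Slc7a11, Gclc, Gclm, Gss, Gstm1, Gstm5, Prdx6, Gpx4, Nfe2l2 and Hmox1. They were taken by symbol from a table of 21118 genes, and all 10 were found in it. The animals were C57BL/6 mice of the genotype Aldh1l1-L10-GFP, in which the astrocyte gene Aldh1l1 directs a GFP-tagged ribosomal protein, so that polysomes of whole cortex could be captured with an antibody to GFP. All groups carried this transgene, and the RNA obtained is that of cells in which it is active, together with whatever else the beads retain. Adult groups held 4 libraries labelled female and 5 labelled male, and the labels give no exact adult age. At P1, P4, P7, P14 and P35 (postnatal days) there were 4, 4, 8, 5 and 3 libraries labelled female and 4, 4, 4, 5 and 3 labelled male, which with the adults gives 53 independent samples. Whether a sample is 1 animal or a pool was not given in the labels.

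Glutathione is a tripeptide that cells build from cysteine, glutamate and glycine. Slc7a11 imports cystine in exchange for glutamate, glutamate-cysteine ligase (catalytic subunit Gclc, modifier subunit Gclm) makes the first and rate-limiting bond, and Gss completes the molecule. Glutathione transferases such as Gstm1 and Gstm5 attach it to reactive compounds, while Prdx6 and Gpx4 use it to reduce peroxides of phospholipids. The transcription factor NRF2, encoded by Nfe2l2, switches on many of these genes and the haem-degrading enzyme Hmox1 when cells meet oxidants, and in the brain astrocytes are known to supply neurons with precursors of glutathione.

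NRF2 binds the antioxidant response element, whose core was searched here as TGACNNNGC on both strands of the RefSeq promoter windows (build GRCm38.p6, 250 bases before to 50 after a start). Of the 10 genes, 7 had a window and 3 of these held the core (42.9%), against 14.0% of 27025 genes. The matches stood upstream of Nfe2l2, Gstm5 and Gclm, and they are shown because Gclm, Gstm5 and Nfe2l2 are among the genes whose age changes are described below. The capitals mark the match, which in Gclm lies on the opposite strand.
Nfe2l2, chr2:75704835-75704913, reverse strand: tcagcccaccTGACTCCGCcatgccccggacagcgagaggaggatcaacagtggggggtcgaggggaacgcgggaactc
Gstm5, chr3:107895752-107895820, forward strand: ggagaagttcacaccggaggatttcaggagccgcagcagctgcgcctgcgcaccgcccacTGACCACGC
Gclm, chr3:122245363-122245491, forward strand: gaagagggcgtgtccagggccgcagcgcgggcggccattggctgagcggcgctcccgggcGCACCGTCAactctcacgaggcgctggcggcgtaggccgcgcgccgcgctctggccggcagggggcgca
The first base of the match stood at position −240 from the RefSeq start in Nfe2l2, at −134 in Gclm and at −42 in Gstm5. The windows of Slc7a11, Gss, Gstm1 and Gpx4 held no match, and Prdx6, Gclc and Hmox1 were not analysed here for it. A match is a run of letters and not a shown binding site.

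Total counts per library lay between 14768178 and 48541139, with a median of 24033399. The library P1 female 4 stood apart: it held at least 10 counts for 10085 genes, and its Aldh1l1 level was 10.1 CPM (CPM is a gene's count scaled to a common library size, here with TMM factors), against 32.8 to 422 CPM in the other 52 libraries. In 12 libraries the Y-linked transcripts went against the labelled sex, with a sum above 1 CPM in a female or under 30 CPM in a male. In 5 libraries, all among these 12, the description carried the letter of the other sex. All 10 astrocyte markers and all 10 neuron markers had counts in every library. The summed astrocyte markers lay between 3574 and 23120 CPM in adults (median 15590) and between 543 and 4320 CPM at P1 (median 1239). The summed neuron markers lay between 3406 and 22910 CPM in adults (median 5792) and between 1355 and 8539 CPM at P1 (median 4089). From P1 to adult 9 of 10 astrocyte markers were called higher, as were 7 of 10 neuron markers (2 lower), 7 of 7 oligodendrocyte markers, 3 of 6 microglial markers and 1 of 5 endothelial markers (1 lower). No marker of oligodendrocyte progenitors (of 2), meningeal fibroblasts (of 3) or erythroid cells (of 3) was called, and 1 of 4 mural and 1 of 3 choroid or ependymal markers were lower. The part of these markers in the results below was not tested. Some values below are given with the mean of the neuron markers in the model. Since 7 of those markers rose and 2 fell from P1 to adult, such values cannot separate neuron content from age. In such bulk RNA, more cells of a type and more RNA per cell cannot be told apart.

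Between P1 and adulthood the defence genes were mostly higher: 8 of the 10 rose and none fell, with Slc7a11 and Gclc outside the threshold. Of all genes 41.3% were called in this comparison and 21.8% were called higher. The median change of the 10 genes was 0.98 on the log2 scale, against 0.06 for all genes. The size of the change ran from 1.73 to 2.65 times for Gclm, Gss, Gpx4, Nfe2l2 and Hmox1 to 5.94 to 6.95 times for Gstm1, Gstm5 and Prdx6. In the test over all 6 ages together, 8 of 10 were called, against 43.5% of all genes. Without the replicate set 4 were called (Gclm, Gstm1, Gstm5 and Prdx6), and with the neuron markers as a covariate 6 were, without Gss (adjusted p = 0.258) and Hmox1 (0.113). These are edgeR quasi-likelihood F tests over all 53 libraries with sex, age and replicate set in the model, and adjusted p-values are Benjamini-Hochberg values over 21118 genes with a threshold of 0.05. A replicate set is the group of libraries that share the first character of the replicate number (1, 2, 3, 4, 6 or S). What that character stands for was not given in the labels. In fits without the replicate set, also called the replicate block, only set S kept a term of its own.

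**Figure D1:**
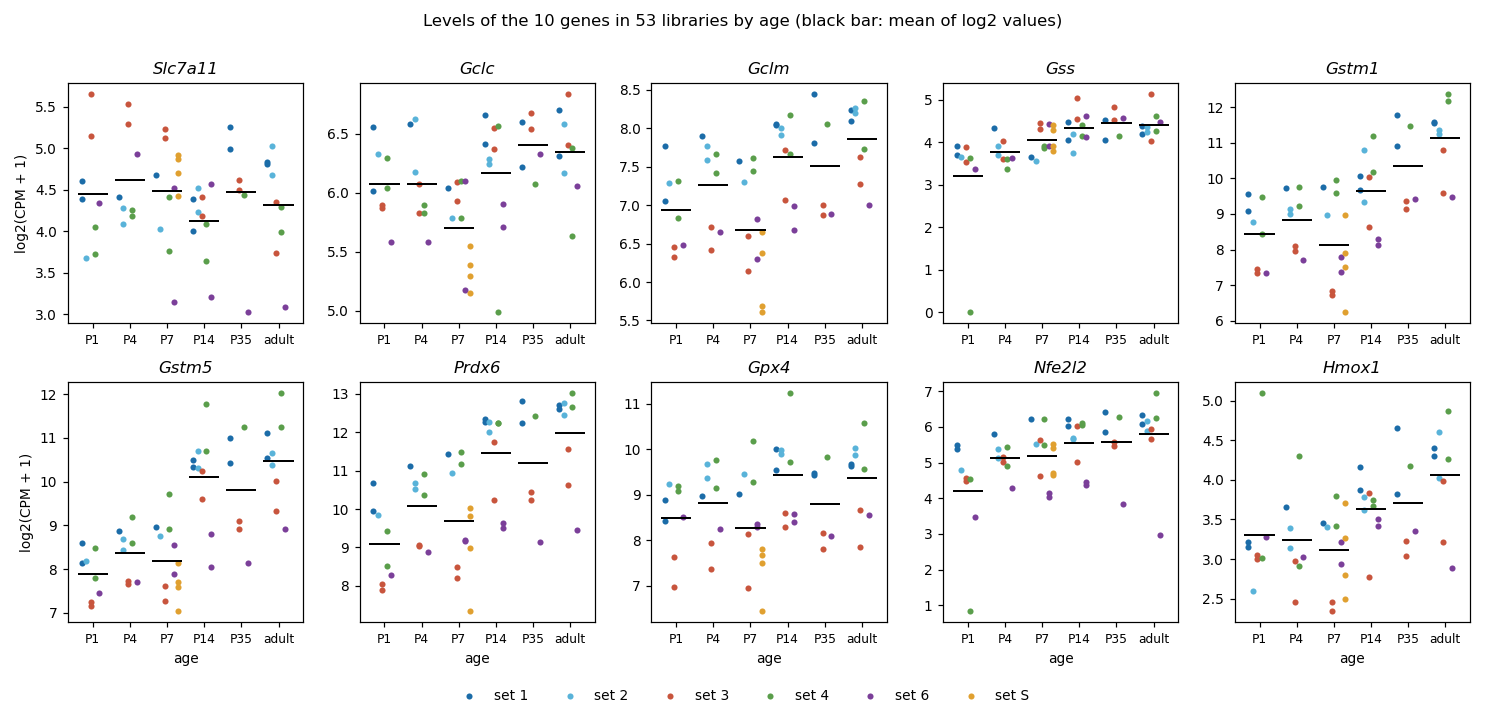
Level of each gene in each of the 53 libraries, as log2(CPM + 1), against age from P1 to adult, with points coloured by replicate set and a black bar at the mean of each age. Gstm1, Gstm5 and Prdx6 lie highest in adults, points of sets 3 and 6 lie mostly below those of sets 1 and 2 for these genes, and P1 female 4 is the lowest point for Gss and Nfe2l2.

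The RNA of the cystine importer Slc7a11 showed no called change. Slc7a11 (ENSMUSG00000027737, chromosome 3, 49892526 to 50443614, reverse strand, build GRCm38) had 7.46 to 31.5 CPM in adults, with a median of 19.5, and 11.8 to 49.4 CPM at P1, with a median of 19.5. Its means at P4, P7, P14 and P35 were 25.4, 23.0, 17.0 and 23.5 CPM. The ranges overlapped throughout, and no adult library exceeded the highest P1 library. The fitted change from P1 to adult was −0.12 ± 0.26 (log2 ± SE, 95% interval −0.64 to 0.39, adjusted p = 0.742). Within replicate sets the difference lay between −1.40 and 1.24 and was above 0 in 3 of 5 sets, so its direction was not the same in each set.

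Of the subunits of glutamate-cysteine ligase, Gclm was called from P1 to adult and Gclc was not. Gclc (ENSMUSG00000032350, chromosome 9, 77754535 to 77794485, forward strand) had 48.6 to 113.6 CPM in adults, with a median of 82.5, and 46.9 to 93.3 CPM at P1, with a median of 64.3. The groups overlapped and the fitted change of 0.25 ± 0.16 missed the threshold (95% interval −0.06 to 0.55, adjusted p = 0.211). Within replicate sets the difference of Gclc lay between −0.165 and 0.746 and was above 0 in 4 of 5 sets. Gclm (ENSMUSG00000028124, chromosome 3, 122245557 to 122270732, forward strand) had 126.9 to 327.6 CPM in adults, with a median of 273.6, and 79.4 to 218.0 CPM at P1, with a median of 122.3. All 9 adult libraries exceeded the P1 median, and 5 exceeded the highest P1 library. Gclm rose 1.83-fold (log2 0.87 ± 0.14, adjusted p = 2.64e-06), with a higher adult value in 5 of 5 replicate sets (0.52 to 1.07).

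Because the subunits act as a pair, their ratio was also taken per kilobase of exon, a comparison chosen after the levels were known. The Gclm to Gclc ratio had a geometric mean of 1.73 in adults (0.81 to 2.59, n = 9) and of 1.10 at P1 (0.82 to 1.45, n = 8). The log2 difference was 0.66, the groups overlapped, and within replicate sets the difference lay between 0.03 and 1.14, above 0 in 5 of 5 sets. Since the ratio was chosen for this difference, it is a description with no test. The arithmetic mean ratio at P1, P4, P7, P14, P35 and in adults was 1.12, 1.43, 1.26, 1.80, 1.46 and 1.84.

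Gss, glutathione synthetase (ENSMUSG00000027610, chromosome 2, 155563181 to 155592810, reverse strand), was a low-abundance message. It had 15.3 to 34.2 CPM in adults, with a median of 19.6, and 0 to 14.1 CPM at P1, with a median of 11.4. In CPM every adult library lay above every P1 library, but with set effects removed only 6 of 9 did and the groups overlapped. Gss rose 2.13-fold (log2 1.09 ± 0.33, adjusted p = 0.00801) and was higher in adults in 5 of 5 sets. Without the 12 libraries whose Y-linked transcripts went against their label the change was 1.00 and did not pass (adjusted p = 0.0741). The value of 0 belonged to P1 female 4, where 0 counts allow up to 0.211 CPM, and without that library the change was 0.85 (adjusted p = 1.44e-04). Over all 6 ages Gss stood just under the threshold (adjusted p = 0.0489), and in 47 of 53 fits that each left out 1 library it did not pass (0.000147 to 0.0976, the lowest without P1 female 4). Of its 50-base stretches 10.3% also lie in other genes, 4.15% in Acss2 on the opposite strand, and the strand setting of the counting is not given in the labels.

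Both transferases of the 10 rose from P1 to adult. Gstm1 (ENSMUSG00000058135, chromosome 3, 108012255 to 108017973, reverse strand) had 713.6 to 5324 CPM in adults, with a median of 2610, and 159.7 to 754 CPM at P1, with a median of 393.5. Of 9 adult libraries, 8 lay above the highest P1 library, and with set effects removed all 9 did. Gstm1 rose 6.33-fold (log2 2.66 ± 0.29, adjusted p = 6.95e-10). Gstm5 (ENSMUSG00000004032, chromosome 3, 107895821 to 107898686, forward strand), a neighbour of Gstm1 in the mu-class cluster, had 479 to 4170 CPM in adults, with a median of 1482, and 140.9 to 386 CPM at P1, with a median of 251.9. The Gstm5 groups did not overlap, and the gene rose 5.94-fold (log2 2.57 ± 0.25, adjusted p = 4.42e-11). Gss and Gstm5 were the 2 genes of the 10 with every adult library above every P1 library in CPM, against 3.58% of all genes. With set effects removed this held for Gstm5, Gstm1, Gclm and Prdx6 but not for Gss, and the share of all genes was not taken. Within replicate sets Gstm1 was higher in adults by 2.16 to 3.33 and Gstm5 by 1.45 to 3.50, in 5 of 5 sets each. Of the 50-base stretches of Gstm1 transcripts 18.9% also occur in other genes, among them the pseudogene Gstm2-ps1 and Gstm3. Of those of Gstm5 9.44% lie in the antisense gene 4933431E20Rik. Both counts are therefore uncertain, by an amount that these shares do not measure.

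The peroxide-reducing enzymes rose by unequal amounts. Prdx6 (ENSMUSG00000026701, chromosome 1, 161240112 to 161251219, reverse strand), a peroxiredoxin that works with glutathione, had 697 to 8345 CPM in adults, with a median of 6269, and 236.5 to 1632 CPM at P1, with a median of 525. Of 9 adult libraries, 7 lay above the highest P1 library, and the exceptions were adult male 60 (697 CPM, set 6) and adult female 3 (1568 CPM, set 3). Prdx6 rose 6.95-fold (log2 2.80 ± 0.30, adjusted p = 4.23e-10), and by 1.17 to 3.88 within each of 5 sets. Gpx4 (ENSMUSG00000075706, chromosome 10, 80047166 to 80056439, forward strand), the selenoenzyme that guards membranes against ferroptosis, had 229 to 1522 CPM in adults, with a median of 789, and 123.5 to 599 CPM at P1, with a median of 418. Its groups overlapped, with 6 of 9 adult libraries above the highest P1 library. Gpx4 rose 1.78-fold (log2 0.83 ± 0.19, adjusted p = 4.22e-04), with 0.05 within set 6 and 0.72 to 0.99 within the other sets. Without the replicate set in the model its change was 0.93 and did not pass (adjusted p = 0.0984). The processed copy Gpx4-ps2 shares 34.7% of the 50-base stretches of Gpx4, so the count of Gpx4 is uncertain, by an amount that this share does not measure.

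The regulator and its target rose less evenly. Nfe2l2 (ENSMUSG00000015839, chromosome 2, 75675513 to 75704641, reverse strand) had 6.90 to 122.7 CPM in adults, with a median of 66.9, and 0.77 to 43.7 CPM at P1, with a median of 22.5. Of 9 adult libraries, 8 lay above every P1 library, and adult male 60 lay below all but P1 female 4. Nfe2l2 rose 2.65-fold (log2 1.41 ± 0.32, adjusted p = 5.01e-04). Without P1 female 4 the change was 1.15 (adjusted p = 3.38e-05), and within sets it was −0.54 in set 6, where 1 adult stands against 1 P1 library, and 0.80 to 4.46 in the other 4 sets. Hmox1 (ENSMUSG00000005413, chromosome 8, 75093621 to 75100589, forward strand) had 6.40 to 28.2 CPM in adults, with a median of 18.3, and 5.04 to 33.2 CPM at P1, with a median of 7.59. The highest P1 value was that of P1 female 4, and the other 7 P1 libraries lay between 5.04 and 8.68 CPM. Hmox1 rose 1.73-fold (log2 0.79 ± 0.25, adjusted p = 0.0108), or by 1.04 without P1 female 4 (adjusted p = 4.36e-04), and the difference within set 6 was −0.44. Without the replicate set its change was 0.80 and did not pass (adjusted p = 0.0593). With the mean of the neuron markers as a covariate Hmox1 kept a change of 0.79 but did not pass (adjusted p = 0.111). The other 7 called genes passed with larger changes than before, from 1.08 for Gpx4 to 3.79 for Prdx6, and the median of all genes was then 0.35.

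**Figure D2:**
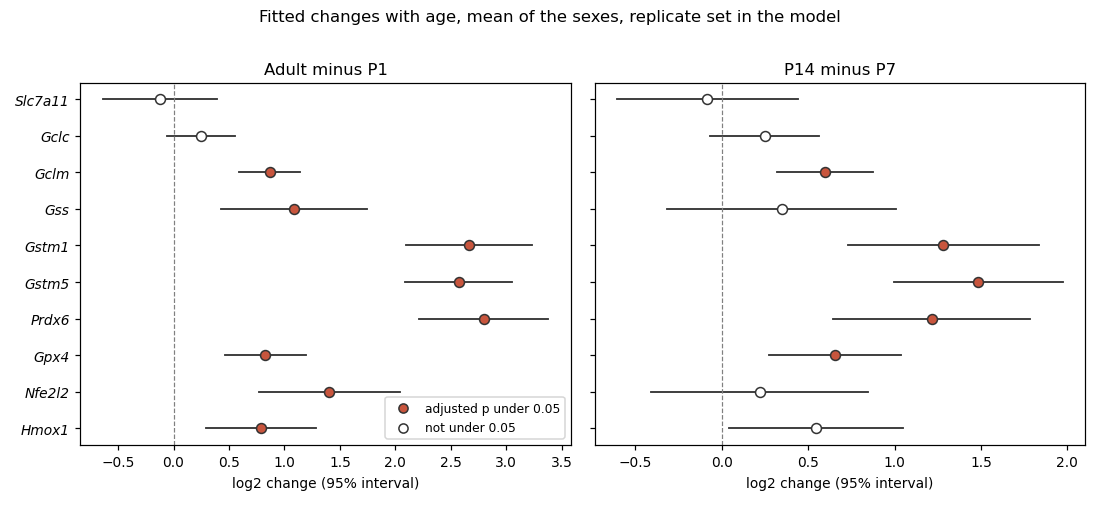
Fitted log2 change of each gene with its 95% interval, for adult minus P1 on the left and P14 minus P7 on the right, filled where the adjusted p was under 0.05. Gstm1, Gstm5 and Prdx6 stand to the right in both, and the intervals of Slc7a11 and Gclc include 0 in both.

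**Figure D3:**
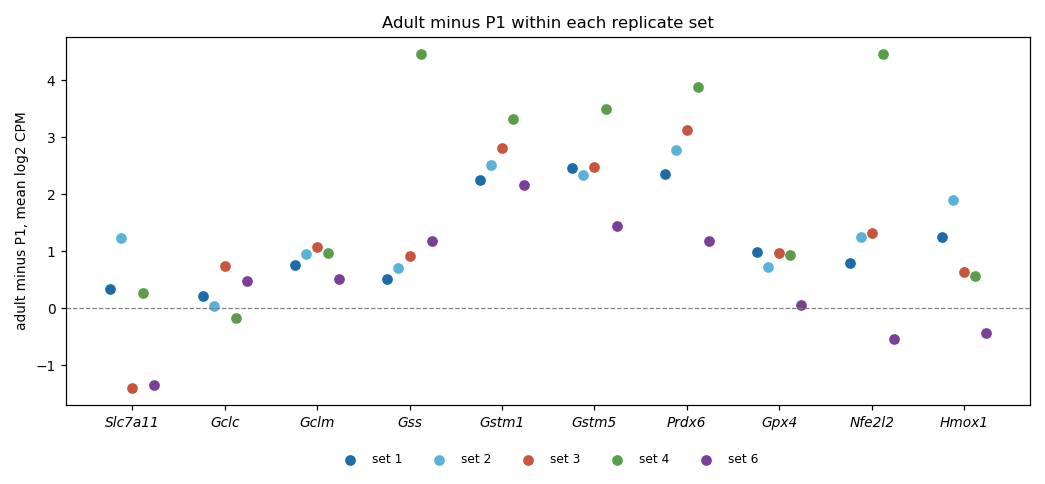
Adult minus P1 within each of the 5 replicate sets that hold both ages, as a difference of mean log2 CPM for each gene. Every point lies above 0 for Gclm, Gss, Gstm1, Gstm5, Prdx6 and Gpx4, while Nfe2l2 and Hmox1 are at −0.54 and −0.44 in set 6. The points of set 4 include P1 female 4 among their P1 libraries.

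The step from P7 to P14 was the only one between neighbouring ages in which any of the 10 genes passed. Gclm, Gstm1, Gstm5, Prdx6 and Gpx4 were higher at P14, 5 of 10, against 1.65% of all genes called higher in that step. In the same step 5 of 10 astrocyte markers and 2 of 7 oligodendrocyte markers were called higher, and 2 of 10 neuron markers lower. The summed astrocyte markers had a median of 10250 CPM at P14 and 2629 CPM at P7. The part of these markers in the step was not tested. Prdx6 had 720 to 5231 CPM at P14, with a median of 4466, and 159.9 to 2862 CPM at P7, with a median of 739. Gstm5 had 263 to 3503 CPM at P14, with a median of 1276, and 130.1 to 836 CPM at P7, with a median of 258. For each of these genes 7 of 10 P14 libraries exceeded the highest P7 library, although the ranges overlapped. Gclm had 101.6 to 286.6 CPM at P14, with a median of 224, and 47.7 to 194.9 CPM at P7, with a median of 97.6. Gstm1 had 279 to 2321 CPM at P14, with a median of 930, and 74.5 to 995 CPM at P7, with a median of 228. Gpx4 had 310 to 2409 CPM at P14, with a median of 790, and 85.3 to 1157 CPM at P7, with a median of 295. The P14 libraries above the highest P7 library numbered 7 for Gclm, 5 for Gstm1 and 1 for Gpx4, so Gpx4 overlapped the most. The fitted log2 change was 1.48 ± 0.25 for Gstm5 (adjusted p = 6.25e-04), 1.28 ± 0.28 for Gstm1 (0.00764) and 1.21 ± 0.29 for Prdx6 (0.0125). It was 0.60 ± 0.14 for Gclm (adjusted p = 0.0124) and 0.66 ± 0.19 for Gpx4 (0.0481). Gpx4 did not pass in 13 of 22 fits that each left out 1 library (adjusted p up to 0.149), nor without set S (0.0883). All 5 genes were higher at P14 in 5 of 5 replicate sets, with the smallest within-set difference of Gstm1 at 0.10. Sets 1 and 2 hold 1 P7 library each. Every P7 library of sets 1, 2 and 6 was sequenced in 2 runs, and no P14 library was. In these sets run and age cannot be told apart. The count rests on the design: none of the 10 passed without the replicate set in the model, 2 passed without P7 male 2 (Gstm1 and Gstm5), and only Gstm5 passed without the 12 libraries whose Y-linked transcripts went against their label, or without the 5 with the other sex letter. The changes themselves stayed of like size. Without the replicate set the 5 lay between 0.70 for Gclm and 1.75 for Gstm5. Without the 12 libraries they lay between 0.60 for Gclm and 1.39 for Gstm5. The fit without the replicate set kept a term for set S, which holds only P7 libraries.

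The remaining steps held no called gene of the 10. From P1 to P4, where 0.44% of all genes were called, the largest value was that of Prdx6 at 0.95 ± 0.28 (unadjusted p = 0.00174, edgeR adjusted p = 0.11), and DESeq2 called it (adjusted p = 0.0361), as did edgeR with the neuron markers as a covariate (0.0178). From P4 to P7 1.67% of all genes were called and the values of the 10 genes ran from −0.42 for Slc7a11 to 0.40 for Gstm5. From P14 to P35 1.15% were called, with 0.71 ± 0.29 for Gstm1 (adjusted p = 0.219) and −0.43 ± 0.20 for Gpx4 (0.306) at the ends. From P35 to adult 0% of genes were called by edgeR, with 884 genes at an unadjusted p under 0.05, none of them among the 10, and 114 genes called by DESeq2. In that last step Gstm1, Prdx6 and Gstm5 had 0.55 ± 0.30, 0.52 ± 0.31 and 0.48 ± 0.26. Mean levels of Prdx6 from P1 to adult were 673, 1265, 1192, 3510, 3436 and 5078 CPM, those of Gstm1 412, 514, 394, 981, 1702 and 2706 CPM, and those of Gpx4 402, 515, 394, 838, 514 and 762 CPM.

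Per kilobase of exon, with all annotated exons of a gene joined, Gstm1, Gstm5, Prdx6 and Gpx4 held the first 4 places at every age. The length of the expressed transcripts was not measured, and the order within these places depends on the length used. In CPM the adult means were 5078 for Prdx6 against 2706 for Gstm1, and 20.79 for Gss against 17.05 for Hmox1. In adults Gstm1 stood highest with 1837 ± 1061 CPM per kb (SD, n = 9), then Gstm5 with 1338 ± 882, Prdx6 with 1057 ± 551 and Gpx4 with 442 ± 229. Gclm followed with 38.7 ± 11.6, Gclc with 21.9 ± 5.2, Nfe2l2 with 17.3 ± 8.0, Hmox1 with 9.74 ± 3.90, Gss with 3.52 ± 0.94 and Slc7a11 with 1.46 ± 0.57. Neighbours in this order overlapped in their SDs, except Gpx4 and Gclm, Hmox1 and Gss, and Gss and Slc7a11. At P1 the order began with Gstm1 (280 ± 165), Gpx4 (233 ± 103), Gstm5 (196 ± 73) and Prdx6 (140 ± 101), again with overlapping SDs, and Gpx4 ranked 4 in adults and 2 at P1. The last 6 places were held by the same genes in the same order at P1 and in adults.

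The level of these genes also varied between replicate sets. Between sets 9 of the 10 genes were called, all but Gss, against 69.1% of all genes. Compared with set 1, 7 of 10 genes were lower in set 3 (24.8% of all genes were lower), 7 in set 6 (17.1%) and 6 in set S (18.3%), while in set 4 only Gpx4 was called, as higher (17.9% in either direction), and in set 2 none was (0%, with 1126 genes at an unadjusted p under 0.05). Prdx6 had a median of 862 CPM in set 3, 577 CPM in set 6 and 701 CPM in set S, against 4873 CPM in set 1. Its fitted log2 difference from set 1 was −1.99 ± 0.25 in set 3, −2.55 ± 0.31 in set 6 and −1.99 ± 0.42 in set S. In the same sets that of Gstm1 was −1.68, −1.95 and −1.35, that of Gclm −1.01, −1.12 and −1.43, and that of Gpx4 −1.37, −0.92 and −1.66. Nfe2l2 had 6.90 to 21.0 CPM in set 6, all below the 40.4 to 83.7 CPM of set 1 (−2.06 ± 0.34), and its difference in set 3 was −0.73 ± 0.28. In these same sets the astrocyte markers had medians of −1.53, −2.56 and −1.94 against set 1 and the neuron markers 1.65, 2.02 and 1.46. In set 4, where none of the 10 genes was called lower, the medians were −1.09 for astrocyte markers, 0.68 for neuron markers and −0.22 for the 10 genes. In set 2, where no gene of the table was called, they were −0.67, 0.11 and −0.24. Set S holds only P7 libraries, and what sets the sets apart was not tested.

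**Figure D4:**
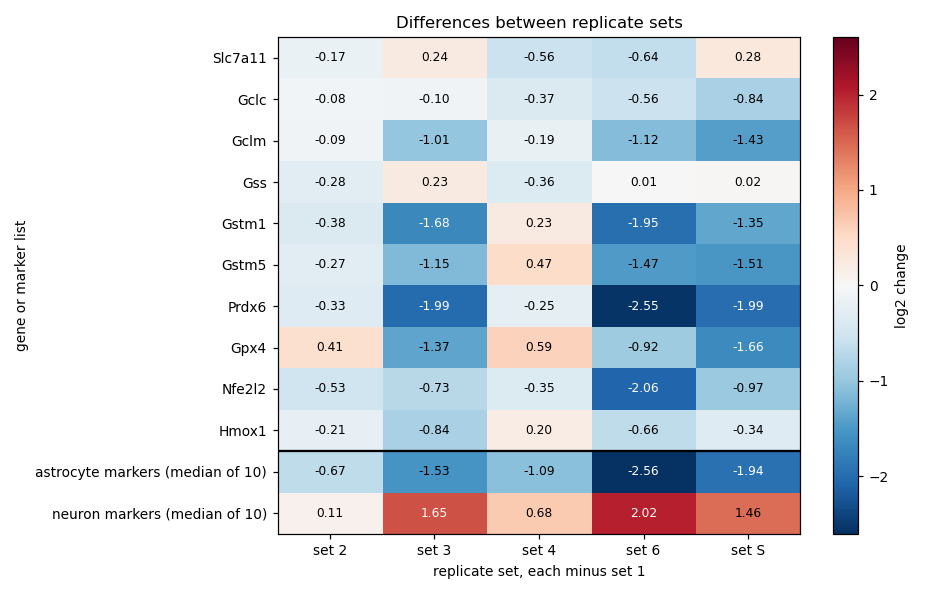
Log2 difference of each replicate set from set 1 for the 10 genes, with the medians of the astrocyte and neuron marker lists under the line. Prdx6, Gstm1, Gstm5, Gclm and Gpx4 are below 0 in sets 3, 6 and S. The astrocyte markers are below 0 and the neuron markers above it in all 5 sets. In set 4 none of the 10 genes was called lower, and their median was −0.22. In set 2 no gene of the whole table was called, and the median of the 10 was −0.24.

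No difference between the sexes as labelled passed the threshold in any of the 10 genes. As a mean over the 6 ages none was called between females and males, against 0.0284% of all genes, and none changed with age differently by sex (0% of all genes in edgeR, with 778 genes at an unadjusted p under 0.05, none of the 10 among them, and 2 genes in DESeq2). Prdx6 had 264 to 6927 CPM in females, with a median of 1516, and 160 to 8345 CPM in males, with a median of 1387, so that the sexes overlapped over most of their range. The female minus male difference was 0.12 ± 0.16 for Prdx6 (95% interval −0.21 to 0.44), 0.13 ± 0.16 for Gstm1 (−0.19 to 0.44) and −0.00 ± 0.09 for Gclc (−0.19 to 0.18). Hmox1 had the largest, 0.29 ± 0.15 (−0.01 to 0.59). At single ages the largest was that of Hmox1 at P1, 0.98 ± 0.37 (adjusted p = 0.513), where P1 female 4 held the high value. The count was 0 also without the 12 libraries whose Y-linked transcripts went against their label. A missed threshold does not show that the sexes are alike, and the intervals allow differences of up to 0.59 as a mean over ages and, at single ages, of up to 1.71 (Hmox1 at P1).

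The genes most like each of the 10 in their pattern over the 12 means of sex and age, with set effects removed and 10895 genes compared, were given by Pearson's r as a description. The 12 means share libraries with the tests above, and genes that change with age in one direction all correlate: 757 genes had r above 0.9 with Prdx6 and 0 with Slc7a11. For Prdx6 the closest were Sfxn5 and S100a1 (0.992 each), for Gstm1 Gstm3 (0.993) and Plin3 (0.989), and for Gstm5 Adgre5 (0.992) and Ndufb10 (0.987). For Gclm they were Rab21 (0.983) and Mid1ip1 (0.981), for Gclc Atxn7 (0.915) and Kctd6 (0.903), and for Slc7a11 Tmem158 (0.877) and Cd9 (0.816). For Gpx4 they were Ndufb11 (0.976) and Mrps16 (0.975), for Gss Rhot2 (0.991) and Mul1 (0.988), for Nfe2l2 Msrb2 (0.991) and Sirt4 (0.989), and for Hmox1 Zfp467 (0.952) and Rabac1 (0.921). Among the 10 themselves the highest r were those of Prdx6 with Gstm5 (0.976) and of Nfe2l2 with Gss (0.967). Gss and Nfe2l2 were both at their lowest in P1 female 4, which is part of 1 of the 12 means. Their r with other genes also rest in part on that library, and 740 genes had r above 0.9 with Gss and 699 with Nfe2l2.

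Beyond the 10 genes, 119 genes of the same pathway were listed and 116 were measured. From P1 to adult 49 of them rose (42.2%), 20 fell (17.2%) and 47 did not pass, with a median change of 0.51, against 21.8% higher and 19.5% lower with a median of 0.06 over all genes. With the neuron markers as a covariate 39 rose and 11 fell.

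In glutathione synthesis and precursor supply 6 of 12 other genes rose and none fell. Cth, which makes cysteine from cystathionine, had 40.0 ± 19.2 CPM in adults and 9.97 ± 8.85 CPM at P1 (SD, n = 9 and 8; log2 change 2.09 ± 0.28, edgeR adjusted p = 5.79e-08). Oplah, the oxoprolinase that returns glutamate to the cycle, had 47.7 ± 19.0 CPM in adults and 14.8 ± 7.0 CPM at P1 (1.66 ± 0.28, adjusted p = 5.32e-06). Of 21 other transferases 9 rose and 2 fell. The mu-class Gstm3, which shares sequence with Gstm1, had 56.1 ± 36.6 CPM in adults and 8.63 ± 6.19 CPM at P1 (2.58 ± 0.32), and Gsta4, which handles products of lipid peroxidation, 124 ± 54 and 41.3 ± 16.4 CPM (1.63 ± 0.21). Those that fell were Gstm7, with −0.94 ± 0.24, and the omega-class Gsto1, with −0.59 ± 0.21 (adjusted p = 0.0206).

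The genes of peroxide and thiol chemistry were mixed. Among 13 other glutathione peroxidases and redox enzymes 2 rose and 5 fell, with a median of −0.26. Hagh, the hydrolase that ends the glyoxalase route, rose by 1.61 ± 0.13 and Glrx, a glutaredoxin, by 0.44 ± 0.18 (adjusted p = 0.0459), while the secreted peroxidase Gpx3 changed by −1.31 ± 0.30 and the endoplasmic reticulum enzyme Gpx8 by −1.08 ± 0.28. Among 15 other peroxiredoxins and thioredoxins 8 rose and 4 fell. Srxn1, the sulfiredoxin that repairs overoxidised peroxiredoxins, had 130 ± 40 CPM in adults and 26.4 ± 12.4 CPM at P1 (2.26 ± 0.29, adjusted p = 2.20e-08), and Prdx5 rose by 0.90 ± 0.16. The cytosolic Prdx2 changed by −0.64 ± 0.14 and the thioredoxin reductase Txnrd1 by −1.03 ± 0.20. Of 4 genes for superoxide and hydrogen peroxide 3 rose, among them the extracellular Sod3 by 3.90 ± 0.54 and the mitochondrial Sod2 by 1.07 ± 0.13.

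The partners and targets of NRF2 also moved both ways. Of 10 other genes of NRF2 and its regulators 2 rose and 3 fell: Nfe2l1, a relative of Nfe2l2, had 105 ± 28 CPM in adults and 26.9 ± 12.6 CPM at P1 (2.05 ± 0.31), Sqstm1, which binds the NRF2 inhibitor KEAP1, rose by 1.19 ± 0.18, and the repressor Bach2 and the small Maf gene Mafk changed by −2.21 ± 0.23 and −0.96 ± 0.23. Of 19 other target enzymes 10 rose and 3 fell. Fth1, the ferritin heavy chain, had 1697 ± 545 CPM in adults and 536 ± 138 CPM at P1 (1.67 ± 0.16, adjusted p = 3.13e-11), whereas the light chain Ftl1 had 282 ± 122 and 475 ± 246 CPM (−0.71 ± 0.16). Both ferritin chains have processed copies in the genome, so their counts are uncertain. The haem transporter Slc48a1 rose by 1.77 ± 0.18, and Idh1, which makes NADPH in the cytosol, changed by −1.56 ± 0.30.

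Of 8 genes for selenoprotein synthesis 2 rose and 3 fell, with the selenium carrier Selenop at 2.14 ± 0.35 and Pstk at 0.88 ± 0.35 (adjusted p = 0.0426), and with Sephs1 at −2.05 ± 0.22 and Lrp8, a receptor for selenoprotein P, at −1.66 ± 0.24. Of 11 iron and lipid genes related to ferroptosis 4 rose and none fell, among them transferrin, Trf, at 3.12 ± 0.59 and its receptor Tfrc at 1.61 ± 0.36. All 3 metallothioneins rose, with Mt1 at 6519 ± 4250 CPM in adults and 697 ± 457 CPM at P1 (3.36 ± 0.49, adjusted p = 3.67e-07) and Mt2 at 1318 ± 888 and 234 ± 151 CPM (2.64 ± 0.46). Like Prdx6 and Gstm1, the metallothioneins lay below set 1 in sets 3, 6 and S, with median differences of −2.02, −1.43 and −1.87.

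**Figure D5:**
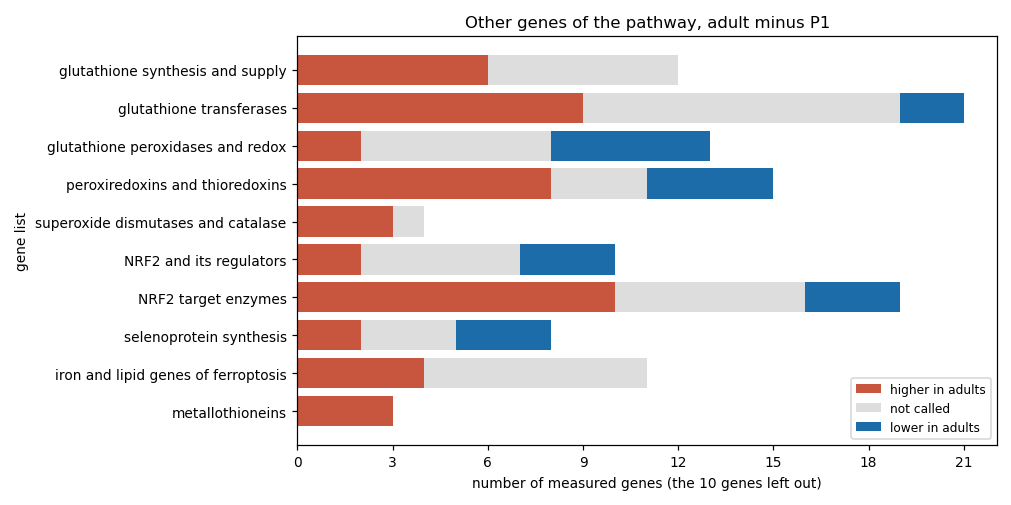
Number of measured genes of each other list called higher in adults, not called, or called lower in adults (adult minus P1, edgeR adjusted p under 0.05, the 10 genes left out). Of 116 genes, 49 were higher and 20 lower, and the lower ones lie mostly among glutathione peroxidases, peroxiredoxins, NRF2 genes and selenoprotein synthesis.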

How the data were processed

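Ribosome-bound RNA was sequenced from 53 samples. The authors deposited raw counts for each gene without normalization. Per the submitters' processing notes the authors used CASAVA, HISAT2, SAMtools and featureCounts on GRCm38.p5. For versions, annotation release, strand setting and any gene filter, the sources used here say nothing. Per the labels, libraries were stranded, and 4 P7 samples were sequenced in 2 runs. Each of these has 1 column, used as it stands, and the 4 libraries of set S come from the second run alone. No gene had under 50 counts over all libraries, and the 10 genes had 0 to 179482 counts per library. The members and lists were chosen with earlier results of these data known.

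Counts were tested in edgeR 4.0.16 (R 4.3.3; TMM, trended dispersion, robust quasi-likelihood F tests) with 12 groups of sex and age plus replicate set. No gene filter was applied (edgeR's own would leave out 133 genes). Age changes are means of the sexes. P-values measure the spread between samples. log2 CPM used a prior count of 2, with set effects removed in limma 3.58.1. DESeq2 1.42.0 was an alternative. Of the other lists, up to 2 genes that rose and 2 that fell were named by the smallest adjusted p, with at least 1 CPM on the higher side. Intervals of fitted changes are 95% intervals, and the limit of a count of 0 (3 counts) covers counting error only. Positions come from GENCODE M21 on GRCm38, which held 99.5% of the gene identifiers, and shared stretches were sought over 50 bases.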

Additional observations from a re-analysis of the deposited data

Results flagged for a closer look

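In 100 groups (10 genes in each group of 1 sex and age with 4 to 8 libraries), 10 ends stood farther from the rest than a Dixon test at 95% allows. The groups mix replicate sets, between which 9 of the 10 genes were called, and the genes share libraries. A chance rate of about 1 in 20 groups therefore does not hold here, and the ends are a description. In P1 female 4 Gss had 0 CPM, against 9.33 to 14.1 CPM in the other females of P1, and Hmox1 had 33.2 CPM, against 7.27 to 8.68 CPM. In P4 female 4 Hmox1 had 18.7 CPM, against 6.90 to 7.81 CPM. In P14 female 6 Gstm5 had 446.5 CPM (1209 to 1671 CPM in the others), Prdx6 795 CPM (3465 to 5231 CPM) and Nfe2l2 21.0 CPM (49.5 to 64.8 CPM). In adult female 3 Prdx6 had 1568 CPM (6269 to 6927 CPM) and Gss 34.2 CPM (17.93 to 19.97 CPM). In adult male 60 Nfe2l2 had 6.90 CPM (60.5 to 122.7 CPM) and Hmox1 6.40 CPM (14.9 to 20.2 CPM). Of the 10 ends, those of P14 female 6 and adult male 60 lie in set 6, those of adult female 3 in set 3, and those of P1 female 4 and P4 female 4 in set 4. The fitted differences of set 6 from set 1 were −2.06 for Nfe2l2, −2.55 for Prdx6, −1.47 for Gstm5 and −0.66 for Hmox1, the last not called. Those of set 3 were −1.99 for Prdx6 and 0.225 for Gss, and those of set 4 −0.36 for Gss and 0.20 for Hmox1. What part the set has in the single values was not tested.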

How the results depend on the processing

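Without the replicate block the 10 genes gave 4 calls over the 6 ages (without Gss, Gpx4, Nfe2l2 and Hmox1), 6 from P1 to adult (without Gpx4 and Hmox1, adjusted p = 0.0984 and 0.0593) and 0 from P7 to P14, and 3088 genes rose and 2838 fell from P1 to adult over the table, against 4594 and 4124 with it. Libraries of 1 set deviated together only in part: same-set pairs had a median r of 0.346 and 201 of 223 exceeded 0.1, against a median of −0.08 between sets. From P7 to P14 the count was 1 without the 5 libraries with the other sex letter and 1 without the 12 whose Y-linked transcripts went against the label. It ran from 2 to 5 with each library left out, the lowest without P7 male 2. From P1 to P4 it was 1 (Prdx6) in DESeq2 and 1 (Prdx6) with the neuron markers as a covariate, against 0. With that covariate 11 other pathway genes fell, against 20, and the median of all genes was 0.35. Leaving out each library gave 7 to 8 calls over the 6 ages, 8 in all 17 fits from P1 to adult, and 0 in the other steps and for sex, with the dispersion trend of all libraries kept. Within set 6 Nfe2l2 (−0.54) and Hmox1 (−0.44) reversed. Gclc passed over the 6 ages in DESeq2 (adjusted p = 0.0318). Gss did not pass from P1 to adult without the 12 libraries (adjusted p = 0.0741). Gpx4 did not pass from P7 to P14 in 13 of 22 fits that left out 1 library (0.0234 to 0.149). RLE size factors, at least 1 CPM in 3 libraries and leaving out the 3 libraries with the fewest genes changed the call of none of the 10 genes in the 3 comparisons recomputed. Over the table, calls moved by more than 1.5 times in single steps: from P7 to P14 they were 697, but 4 without the block, 1587 in DESeq2 and 74 to 1430 with 1 library left out. From P4 to P7 they were 352, against 0 to 1093 over the alternatives, and from P14 to P35 242, against 5 to 1049. From P1 to P4 they were 93, against 0 to 670. Over the 6 ages they were 9190, but 5248 without the block and 5242 with the neuron covariate, which left 5498 of 8718 from P1 to adult. Between females and males DESeq2 called 101 genes against 6. The cause of these changes was not tested. Scarce messages such as Gss and Hmox1 (medians of 392 and 251 counts) limit what small changes can be seen.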

Other observations

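The relation of the mu-class transferases to each other varied with age in a way that the change from P1 to adult does not show. Per kilobase of exon the Gstm5 to Gstm1 ratio averaged 0.82 ± 0.26 at P1 (SD, n = 8), 0.85 ± 0.17 at P4 (n = 8) and 1.34 ± 0.64 at P7 (n = 12). It averaged 1.64 ± 0.41 at P14 (n = 10), 0.82 ± 0.23 at P35 (n = 6) and 0.74 ± 0.14 in adults (n = 9). The highest ratio in adults was 0.96 and the lowest at P14 1.09, so these ages did not overlap, a comparison chosen after the values were seen and not tested. Between adults and P1 the log2 difference was −0.11, with overlapping ranges (0.55 to 0.96 in adults and 0.58 to 1.27 at P1). Shared sequence of Gstm1 with Gstm2-ps1 and Gstm3 bears on the ratio, and its part was not tested.

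Gpx4 reached 2409 CPM in P14 male 4, the highest value of that gene in any library and over 2 times the next P14 value of 1028 CPM. That library had the fewest total counts, 14768178, and is among the 3 with the fewest genes detected.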
